A study of Mus musculus with 6 samples.

Results

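10 genes expressed by the fibroblasts of peripheral nerve and ganglion were followed in lumbar dorsal root ganglia of mice: the leucine-rich proteoglycans Dcn, Lum and Bgn, the fibroblast markers Pdgfra, Apod and Pi16, the microfibril genes Mfap5 and Fbn1, and the adhesive glycoproteins Fn1 and Postn. They were chosen by name, as known markers and matrix genes, with earlier results of these data known. All 10 were found among the 36793 genes of the deposited table. All 10 also passed the filter on low counts that left 16810 genes for testing. The ganglia, clusters of sensory neuron cell bodies with their glia, vessels and connective tissue, were taken at L3-L4 from 3 wild-type mice (libraries 1, 2 and 3) and 3 mice labelled NMDA-R Knockout (libraries 4, 5 and 6). The series title places the deletion of the GluN1 subunit in Schwann cells. No source used here gives the promoter that drives the deletion, the strain, or the sex and age of the mice, and no treatment is named for either group. The labels give Schwann cells as the cell type, but genes that define neurons summed to between 14959 and 23814 TPM (transcripts per 1000000, a level per transcript length) and myelinating Schwann cell genes to between 4803 and 6555 TPM, so the libraries held RNA of the whole ganglion.

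Fibroblasts surround nerve tissue in layers. The epineurium encloses the nerve or ganglion, the perineurium forms a barrier around bundles of axons, and endoneurial fibroblasts lie among the axons and their Schwann cells. They secrete collagens and the proteins that organise them: small leucine-rich proteoglycans bind collagen fibrils and set their spacing, fibrillin microfibrils carry elastin and hold latent growth factors, and fibronectin and periostin link the matrix to integrins on cells. After nerve injury fibroblasts, endothelial cells and Schwann cells can all add to this matrix.

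Total expected counts, the reads that the quantification assigned to genes, lay between 28526704 and 36249163 per library. Knockout libraries 5 and 6 differed by no more than sampling noise, their chi-square averaging 1.15 over 10258 genes with 0 genes differing, against 13.2 to 104.0 with 3382 to 7317 genes for the other 14 pairs of libraries. They were therefore summed and counted as 1 sample, which leaves 3 wild-type and 2 knockout samples. Mouse numbers are all that the labels give of the samples' origin, and p-values measure the spread between these samples only, which may be technical. Knockout library 4 stood apart in genes of blood and muscle: its erythroid genes summed to 59732 TPM, against 12738 to 24471 in the other 5 libraries, and its skeletal muscle genes to 71.5 TPM, against 6.09 to 25.0. In bulk RNA, fewer cells of a type and less RNA per cell cannot be told apart.

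Level per transcript length differed widely among the 10 genes. Apod, a secreted lipocalin that binds lipids, was the highest at 2149 ± 321 TPM (SD, n = 3) in wild type and 1961 ± 404 TPM (SD, n = 2) in knockout. Dcn, decorin, followed at 574 ± 113 and 410.1 ± 89.3 TPM. Apod ranked 1 and Dcn ranked 2 in every library. Mfap5, Bgn and Lum were close together, at 65.3 ± 8.94, 54.7 ± 11.1 and 57.5 ± 11.5 TPM in wild type, and changed places from library to library. In knockout 5 and 6 Lum was at 37.9 and 37.4 TPM, below Mfap5, Bgn and Postn. Postn stood at 31.2 ± 2.77 TPM in wild type and 44.6 ± 7.89 TPM in knockout. At the low end, Fn1 was at 8.24 ± 2.08 TPM in wild type, and Fbn1, Pdgfra and Pi16 at 5.39 ± 1.22, 6.45 ± 0.888 and 5.62 ± 0.0321 TPM, which do not differ beyond their spread. In knockout Fbn1 was at 8.25 ± 0.0955 TPM, above Pi16 and Pdgfra in every knockout library.

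**Figure D1:**
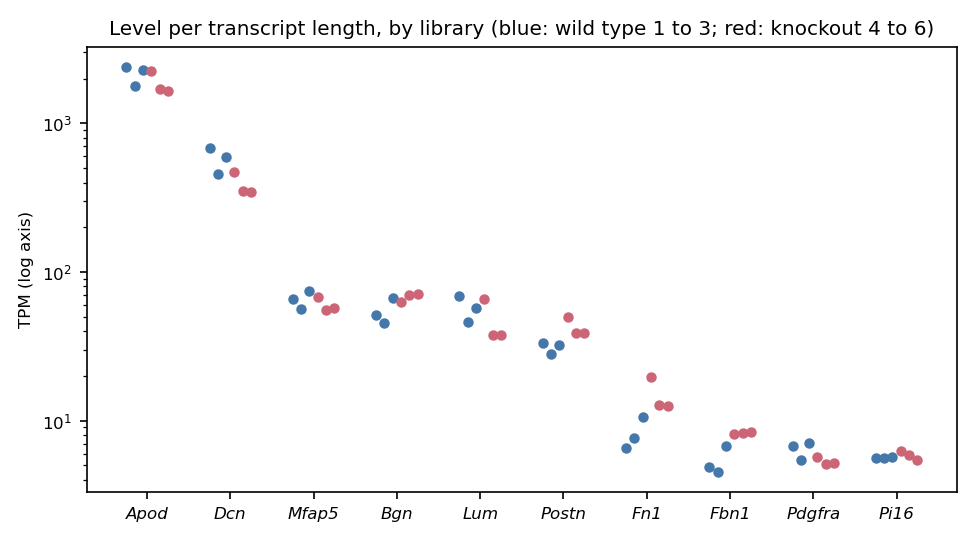
Level of each gene in TPM on a log axis, 1 point per library, with wild type 1 to 3 in blue and knockout 4 to 6 in red; genes are ordered by mean level. Apod and Dcn lie above the other 8 genes in every library, and Fbn1 is at 4.50 to 6.78 TPM in wild type and 8.18 to 8.42 TPM in knockout.

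Knockout and wild type were compared gene by gene. None of the 10 genes passed the edgeR quasi-likelihood test at a Benjamini-Hochberg adjusted p of 0.05, where 0.0952% of the genes tested passed, 0.0595% higher and 0.0357% lower in knockout. At an unadjusted p of 0.05 there were 3, Fn1, Fbn1 and Postn, each higher in knockout, where 9.16% of the genes tested met that criterion and 5.16% did so in this direction. Which genes met it depended on the libraries: without knockout 4 they were Fbn1, higher, and Dcn and Lum, lower in knockout. Without wild type 2 they were Fn1 and Fbn1, higher, and Dcn and Pdgfra, lower, and without wild type 3 Fn1, Fbn1 and Bgn, all higher. Without knockout 5 and 6 they were again Fn1, Fbn1 and Postn. The fit mattered as well. With no library left out, Dcn also met the criterion, lower in knockout, with 6 libraries counted separately, no filter, limma-voom or GC correction. Pdgfra met it, lower, with limma-voom. Of the 10 genes Fbn1 alone met the criterion in every alternative run. After adjustment 1 of the 10 passed in DESeq2, 1 with GC correction and 6 libraries counted separately, and 0 with 6 libraries alone, where 0.871% of genes passed, and in every other alternative. In normalised counts the groups did not overlap for 4 of the 10, these 3 and Pi16, all higher in knockout. Of the genes tested 27.4% did not overlap in either direction and 11.8% in this direction. In TPM Pi16 overlapped. No member was lower in knockout without overlap, beside 15.5% of the genes tested. The adhesive glycoproteins, fibrillin, biglycan, Pi16 and Mfap5 had the higher values in knockout. Decorin, lumican, Apod and the receptor Pdgfra had the lower ones. None of these differences passed in edgeR, and the signs of Lum, Apod and Mfap5 turned in some alternatives.

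Of the genes followed, the adhesive glycoprotein Fn1 had the largest difference. Postn, also an adhesive glycoprotein, had a smaller log2 fold change (0.48) than the microfibril gene Fbn1 (0.62). Fn1 encodes fibronectin, the glycoprotein on which cells assemble fibrils through integrins; the gene lies on the minus strand of chromosome 1 from 71585520 to 71653200 (GRCm38). Its normalised level, in counts per 1000000 scaled counts (CPM), was 24.9, 29.6 and 39.8 in wild type 1, 2 and 3 and 77.4, 47.7 and 47.1 in knockout 4, 5 and 6. Every knockout library lay above every wild-type library, and knockout 4 stood above knockout 5 and 6. The means were 31.7 ± 7.71 CPM (SD, n = 3) and 63.0 ± 21.2 CPM (SD, n = 2), a 1.99-fold difference. The log2 fold change was 0.99 (SE 0.26; edgeR quasi-likelihood, unadjusted p = 0.00814, adjusted p = 0.364). It was 0.60 without knockout 4 and 1.302 without knockout 5 and 6. With DESeq2, under which 1.52% of genes were called, Fn1 passed at 1.00 (adjusted p = 0.0300); it passed in no other alternative, and its adjusted p ranged from 0.0300 to 0.732 over all of them.

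Postn encodes periostin, a matricellular protein that binds integrins and collagen. The gene lies on the plus strand of chromosome 3 from 54361109 to 54391037. Wild-type libraries 1, 2 and 3 had 45.0, 37.0 and 38.2 CPM, and knockout libraries 4, 5 and 6 had 64.0, 48.4 and 46.8 CPM. The lowest knockout library was just above the highest wild-type library. The means were 40.3 ± 4.16 and 56.3 ± 11.5 CPM, a 1.39-fold difference (log2 fold change 0.48, SE 0.16, edgeR adjusted p = 0.469). Without knockout 4 the value was 0.26, and without knockout 5 and 6 it was 0.68. Postn is AT-rich, with 36.3% GC in its longest transcript, and removal of each library's trend with GC content left it at 0.61. With that correction and 6 libraries counted separately, where 2.73% of genes were called, it passed at 0.58 (adjusted p = 0.0265). Over all alternatives its adjusted p ranged from 0.0265 to 0.740.

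RefSeq windows of 250 bases before a transcription start (GRCm38.p6) were found for 6 of the 10 genes. Those of Postn (chr3:54360857-54361106, plus strand) and Bgn (chrX:73483351-73483600, plus strand) are shown because these matrix genes, both with positive differences, have unlike starts. Capitals mark a TATAAA box in Postn and GGGCGG boxes, read on the opposite strand, in Bgn.
Postn: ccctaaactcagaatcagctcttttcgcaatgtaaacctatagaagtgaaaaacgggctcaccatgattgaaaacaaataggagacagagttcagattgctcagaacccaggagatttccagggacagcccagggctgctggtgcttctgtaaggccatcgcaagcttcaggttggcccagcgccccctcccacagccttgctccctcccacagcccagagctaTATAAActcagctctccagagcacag
Bgn: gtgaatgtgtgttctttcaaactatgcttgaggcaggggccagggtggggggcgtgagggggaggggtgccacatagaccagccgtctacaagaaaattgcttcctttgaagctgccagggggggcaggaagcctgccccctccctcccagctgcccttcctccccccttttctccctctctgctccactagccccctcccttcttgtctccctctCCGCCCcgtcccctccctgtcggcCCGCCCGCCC
The motifs were searched on both strands: the TATA box TATAAA, the GC box GGGCGG, the cyclic AMP response element TGACGTCA, the AP-1 site TGANTCA and the TEAD site GGAATG. Postn held TATAAA 26 bases before the start, as 12.4% of the 32851 windows hold it somewhere, and none of the others. A further Postn window held none. Bgn held GGGCGG at 34, 10 and 6 bases before the start, the latter pair overlapping, a motif present in 32.7% of windows. In the remaining windows Fbn1 held a GGGCGG at 185 bases and Pdgfra, Apod and Pi16 held none of the motifs. The cyclic AMP element, the AP-1 site and the TEAD site, present in 1.55%, 6.75% and 12.6% of all windows, were in none of the 7 windows of these genes.

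The microfibril genes parted. Fbn1, fibrillin-1, is the main subunit of microfibrils and lies on the minus strand of chromosome 2 from 125300594 to 125507993. Its wild-type libraries had 22.2, 20.7 and 30.4 CPM and its knockout libraries 38.1, 36.4 and 37.4 CPM. All knockout libraries lay together above the wild type, whose own values were spread 1.46-fold. The difference was 1.54-fold (log2 fold change 0.62, SE 0.18, edgeR adjusted p = 0.388), and the log2 value lay between 0.50 and 0.81 in every alternative run. It was 0.60 without knockout 4 and 0.64 without knockout 5 and 6.

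Mfap5, a microfibril-associated glycoprotein and a marker of epineurial fibroblasts, had overlapping groups at 31.1, 29.2 and 35.4 CPM in the wild type and 36.17, 29.9 and 29.4 CPM in knockout (log2 fold change 0.05, standard error 0.14, edgeR adjusted p = 0.928). Its sign turned in 5 alternatives. The mean length of its transcripts, which the quantification weights by the share of each isoform, was 1101, 1178 and 1114 bases in wild type and 1186, 1255 and 1208 bases in knockout. These did not overlap, beside 8.18% of genes of varying length that were longer in knockout and 9.41% that were shorter. Fn1 was assigned 8312 bases and Lum 2075 bases in every library, and Postn ranged from 2648 to 2992 bases with overlap.

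Among the proteoglycans, decorin and biglycan are close relatives that bind collagen and growth factors. Dcn lies on chromosome 10 from 97479609 to 97518143, with Lum 47.0 kb downstream on the same strand, from 97565128 to 97572703. Dcn was at 555, 375 and 475 CPM in the wild type and 396, 280.1 and 275 CPM in knockout 4, 5 and 6. Knockout 5 and 6 were below every wild-type library, while knockout 4 was above wild type 2. The means were 471 ± 89.3 and 340.1 ± 83.9 CPM, and the log2 fold change was -0.47 (SE 0.22, edgeR adjusted p = 0.574). It was -0.74 without knockout 4 and -0.24 without knockout 5 and 6. Dcn is AT-rich like Postn, with 37.4% GC, and GC correction left -0.34.

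Lum, lumican, which limits the growth of collagen fibrils, was at 64.2, 43.3 and 52.3 CPM in the wild type and 62.2, 34.4 and 33.9 CPM in knockout. Knockout 4 lay within the wild-type range, and knockout 5 and 6 lay below it. The log2 fold change of -0.15 (standard error 0.28, edgeR adjusted p = 0.878) became -0.63 without knockout 4, 0.22 without knockout 5 and 6 and 0.03 without wild type 1. Bgn, biglycan, on chromosome X from 73483602 to 73495933, was at 54.8, 48.9 and 70.5 CPM in the wild type and 67.8, 72.8 and 74.3 CPM in knockout. Wild type 3 lay within the knockout range, and the log2 fold change was 0.29 (standard error 0.17, edgeR adjusted p = 0.634). It was 0.18 without wild type 2 and 0.45 without wild type 3.

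Of the fibroblast markers, Pdgfra, the receptor for platelet-derived growth factor that marks fibroblasts of several tissues, was at 20.4, 16.6 and 21.2 CPM in the wild type and 17.5, 15.1 and 15.1 CPM in knockout (log2 fold change -0.25, standard error 0.15, edgeR adjusted p = 0.646). Wild type 2 lay below knockout 4. Apod was at 1054, 797 and 989 CPM in the wild type and 1019, 727 and 710.3 CPM in knockout, with knockout 4 inside the wild-type range (log2 fold change -0.12, standard error 0.19, edgeR adjusted p = 0.852). The Apod value was -0.39 without knockout 4, -0.02 without wild type 1 and 0.11 without knockout 5 and 6. Pi16, a peptidase inhibitor that marks adventitial and epineurial fibroblasts, was at 6.29, 6.32 and 6.29 CPM in the wild type and 7.01, 6.42 and 6.57 CPM in knockout. The groups did not overlap, yet the log2 fold change was 0.10 (standard error 0.13, edgeR adjusted p = 0.822). With 184 to 210 counts per wild-type library, counting error alone is about 7.10%, while the wild-type spread was 0.548%. The 3 wild-type CPM values lay closer together than that counting error.

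**Figure D2:**
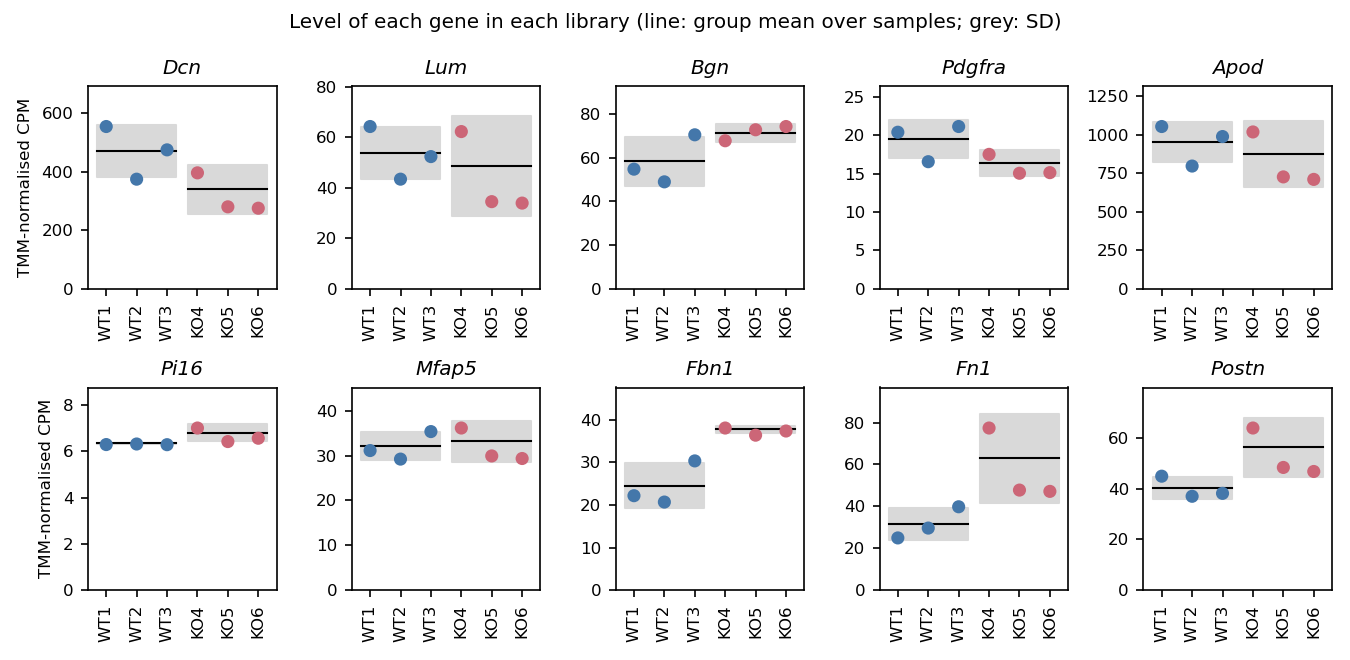
CPM of each gene in wild-type libraries 1 to 3 (blue) and knockout libraries 4 to 6 (red), with the group mean over samples as a line and its SD in grey; libraries 5 and 6 count as 1 sample. Points were scaled over the 6 libraries and means over the 5 samples, so a line can lie slightly off its points. Fn1, Fbn1, Postn and Pi16 do not overlap between groups, and knockout 4 is the highest library for 5 of the 10 genes.

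**Figure D3:**
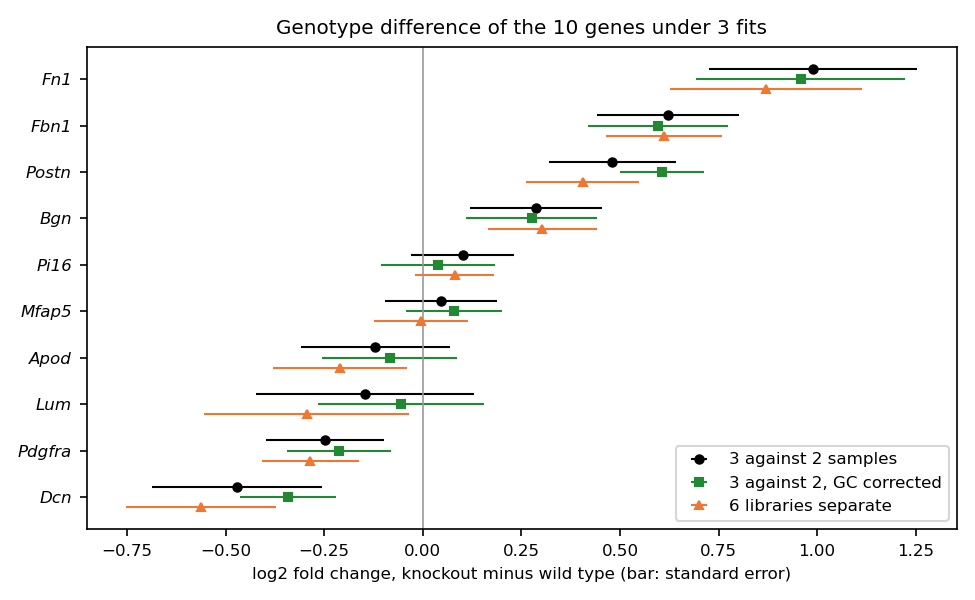
Log2 fold change of each gene, knockout minus wild type, with its standard error, for 3 against 2 samples, for the same with GC correction, and for 6 libraries counted separately. Fn1 is at 0.99, 0.96 and 0.87 and Dcn at -0.47, -0.34 and -0.56 in these fits.

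Libraries of 1 genotype also differed. Knockout 4 was above knockout 5 and 6 for 9 of the 10 genes, all but Bgn, by 1.82-fold for Lum, 1.63-fold for Fn1, 1.42-fold for Dcn and 1.03-fold for Fbn1 against the sum of the pair. Of all genes compared, 44.7% had knockout 4 above knockout 5 and 6. Wild type 2 was the lowest wild-type library for 8 of the 10, beside 36.7% of all genes. The erythroid and muscle genes that were high in knockout 4 had the same order, and their part in the higher values of knockout 4 was not tested.

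Ratios within a library do not depend on how libraries are scaled. For every 100 TPM of Dcn, Fn1 was at 0.962, 1.69 and 1.79 TPM in wild type and 4.17, 3.65 and 3.67 TPM in knockout. Bgn was at 7.62, 10.03 and 11.4 per 100 Dcn in wild type and 13.2, 19.98 and 20.8 in knockout. Postn was at 4.90, 6.18 and 5.49 against 10.6, 11.2 and 11.3, and Fbn1 at 0.722, 0.992 and 1.15 against 1.73, 2.35 and 2.45. These 4 ratios did not overlap between groups, with means 2.65, 1.74, 1.98 and 2.16 times higher in knockout for Fn1, Bgn, Postn and Fbn1. Of the other genes tested, 32.1% also had a ratio to Dcn that was higher in knockout without overlap, and 0.69% a lower one. All share Dcn as denominator, so they are not separate results. The ratios of Lum and Apod to Dcn were also higher in every knockout library, by 1.23 and 1.27 times, and that of Pdgfra overlapped.

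**Figure D4:**
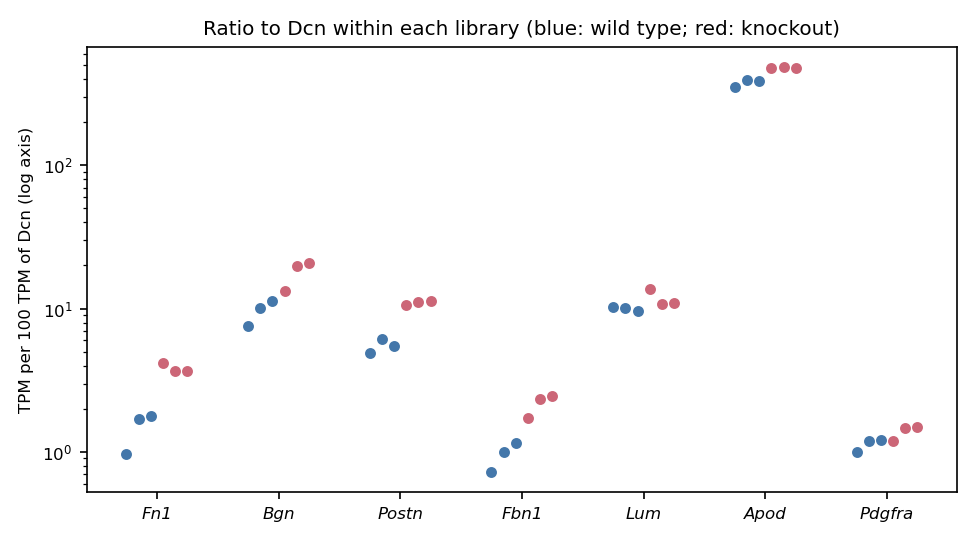
TPM of 7 genes per 100 TPM of Dcn on a log axis, 1 point per library, wild type in blue and knockout in red. Fn1, Bgn, Postn and Fbn1 lie higher in all knockout libraries, and Pdgfra overlaps.

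The wider families gave the following picture, in which no gene passed over all genes in edgeR. Over all genes tested the median log2 fold change was 0.00, with 8431 of 16810 positive. Of the same genes 5.16% were higher in knockout at an unadjusted p of 0.05 in edgeR, and 11.8% were higher without overlap. Of 20 adhesive and matricellular glycoproteins 18 were positive, with a median of 0.33, 7 at an unadjusted p of 0.05 and 9 higher without overlap; the median was 0.17 without knockout 4. Besides Fn1 they included Tnc, tenascin-C, at 1.37 (1.89, 2.58 and 2.29 CPM in wild type, 6.74, 4.65 and 5.22 CPM in knockout), Ecm1 at 0.75 and Sparc, a collagen-binding protein, at 0.51. Of 19 microfibril and elastic fibre genes 15 were positive, with a median of 0.29, 5 at an unadjusted p of 0.05 and 8 higher without overlap; the median was 0.45 without wild type 2. The smallest p were those of Loxl2, a lysyl oxidase that cross-links collagen and elastin, at 1.44, Fbln2 at 0.69 and Ltbp2 at 0.70. Loxl2 was at 4.41, 3.99 and 6.80 CPM in the wild type and 13.4, 15.3 and 12.5 CPM in knockout (edgeR adjusted p = 0.191).

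The 13 tested small leucine-rich proteoglycans were divided, 6 positive and 7 negative with a median of -0.02. Only Chad, chondroadherin, a cartilage proteoglycan, met an unadjusted p of 0.05, at 1.68, from 25, 22 and 41 counts in wild type to 54, 145 and 129 in knockout. Dcn and Bgn had the next smallest p. All 13 fibrillar and associated collagens were positive, with a median of 0.51. Of them 10 were higher without overlap, beside 11.8% of all genes tested. The smallest p were those of Col5a3 at 0.80 (edgeR adjusted p = 0.0695), Col5a2 at 0.66 and Col1a1 at 0.61.

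Receptors and ligands that act on the matrix followed. Among 7 integrin subunits that bind fibronectin or periostin 6 were positive, with Itgav at 0.58, Itgb3 at 0.64 and Itgb5 at 0.38. The negative one was Itga8 at -0.37, which the rule for naming genes did not select and which is given after its value was seen. Itgav was at 45.5, 47.0 and 52.4 CPM in the wild type and 71.5, 71.5 and 73.8 CPM in knockout, without overlap (edgeR adjusted p = 0.235). Of 14 genes of the transforming growth factor beta pathway, which induces many matrix genes, 12 were positive with a median of 0.26. Tgfbr2 was at 0.47 and Eng at 0.48. Of the 6 platelet-derived growth factor ligands and receptors Pdgfra was the 1 negative gene; its ligand Pdgfc was at 0.49 and Pdgfb at 0.28.

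**Figure D5:**
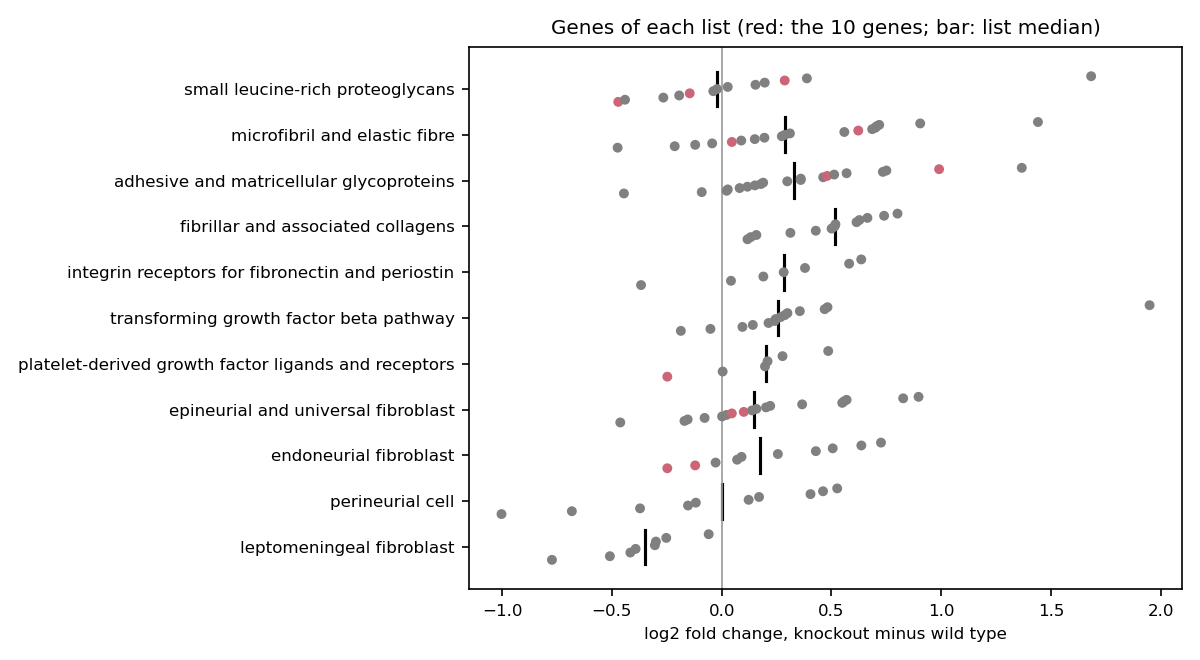
Log2 fold change, knockout minus wild type, of each tested gene by list, with the 10 genes in red and the list median as a bar. All 13 collagens lie above 0, the proteoglycans lie on each side of it, and all 8 leptomeningeal genes lie below it.

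Markers of fibroblast types were mixed. Of 18 epineurial and universal fibroblast genes 14 were positive with a median of 0.15, with the smallest p those of Ly6c1 at 0.90, Tnxb, tenascin-X, at 0.57 and Ly6a at 0.83; Ly6c1 and Ly6a are also expressed by endothelium. Of 10 tested endoneurial genes 7 were positive with a median of 0.17, among them Etv1 at 0.43, which sensory neurons also express, Cxcl12 at 0.51 and Osr2 at 0.64. The perineurial list had 5 positive and 5 negative, with Moxd1 at -0.37, Itgb4 at 0.53 and Slc2a1 at 0.40. All 8 markers of leptomeningeal fibroblasts, the cells of the inner membranes around the spinal roots, were negative, with a median of -0.35 and 0 at an unadjusted p of 0.05. That median ran from -0.60 without knockout 4 to -0.07 without wild type 3. The smallest p were those of Crabp2 at -0.42, Foxd1 at -0.30 and Slc47a1 at -0.39. Their summed level was 144 to 404 TPM in wild type and 102 to 307 TPM in knockout. Leptomeningeal cells also make Dcn, Lum and Apod, and the part of these cells in the lower values was not tested.

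Levels of other cell types, some of which also make fibronectin or biglycan, stand beside these values. Endothelial genes summed to 127 to 132 TPM in wild type and 150.3 to 160.0 TPM in knockout, with 9 of 9 positive. Bone and cartilage genes summed to 19.8 to 27.9 and 29.8 to 38.3 TPM, with 6 of 6 tested positive and Matn1 at 0 counts in all libraries. Myelinating Schwann cell genes summed to 4803 to 5688 and 6318 to 6555 TPM, and satellite glia genes to 5340 to 5879 and 6074 to 6680 TPM, all positive. Mural cell genes summed to 155 to 206 and 129.6 to 131 TPM, though 6 of 9 were positive. Rgs5, the mural gene with the highest CPM, had a log2 fold change of -0.79 and is given after its value was seen. Macrophage genes summed to 95.7 to 118 and 93.0 to 123 TPM, and adipocyte genes to 7.32 to 16.6 and 6.00 to 16.5 TPM. Higher in knockout without overlap were 7 of 10 myelinating Schwann cell genes and 7 of 8 satellite glia genes, beside 11.8% of all genes tested. The count was 5 of 9 for endothelium, 3 of 9 for mural cells and 3 of 6 for tested bone and cartilage genes. For macrophages it was 0 of 10. The part of these cells in the values of Fn1, Fbn1, Bgn and Postn was not tested.

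Genes whose pattern over the 5 samples was most like that of Fn1 were sought among 9943 protein-coding genes with a mean of at least 10 CPM, by the root mean square difference of centred log2 CPM. They were Ly6a at 0.12, Ly6c1 at 0.16 and Serpinh1, a chaperone of collagen, at 0.25. Serpinh1 was at 44.0, 42.2 and 66.8 CPM in the wild type and 83.6, 77.6 and 75.3 CPM in knockout. For Dcn they were Rps27rt at 0.08, Zfp40 at 0.08 and Crebrf at 0.08, which are not matrix genes. Rps27rt was at 115, 82.2 and 91.3 CPM in the wild type and 83.9, 63.7 and 60.9 CPM in knockout. Its order of libraries was that of Dcn, the likeness for which it was selected.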

How the data were processed

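RNA was measured in 6 dorsal root ganglion libraries, made with a stranded mRNA kit per the labels. Per the submitters' processing notes, reads were handled with Trimmomatic 0.38, STAR 2.6.0a and RSEM 1.3.0 on GRCm38; no source used here gives the annotation release or strand setting. Files deposited by the authors hold expected counts, which are estimated counts that RSEM does not normalize, with TPM, FPKM and transcript lengths, per the file headers. RSEM splits reads that match several transcripts; of the 10 genes only Fn1 and Fbn1 had counts that were not whole (tolerance 1e-09).

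Of 36793 identifiers 35243 matched a symbol in GENCODE vM21, which also gave positions and GC content. Expected counts were rounded, filtered with filterByExpr, scaled by TMM and compared by quasi-likelihood in edgeR 4.0.16 under R 4.3.3 (two-sided, genotype as the only term, Benjamini-Hochberg over 16810 genes). Libraries 5 and 6 were summed. Standard errors are the absolute log2 fold change over the square root of F, and CPM is per 1000000 scaled counts. CPM of single libraries was scaled over the 6 libraries, and group means and SDs of CPM over the 5 samples. A mean can therefore differ slightly from that of the library values printed. Deposited TPM and FPKM served for levels, ratios and an alternative in limma 3.58.1 on log2(TPM + 0.5); DESeq2 1.42.0 was another. The test was also run on simulated counts with the same spread between samples for every gene. Spread differs between genes in the real libraries, so that run does not show how the test performs on them. The genes and lists were chosen with earlier results of these data known, so lists are described by counts and medians, without a test. Genes named from lists are the 3 with the smallest p in each list of matrix, pathway or fibroblast genes and any that passed; members among these were not repeated. 1 gene that this rule names is not reported here.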

Additional observations from a re-analysis of the deposited data

How the results depend on the processing

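No paired analysis was possible because wild type and knockout have no mouse number in common. GC correction with 6 libraries counted separately was chosen after seeing the data. Of all genes tested 16 passed; there were 144 with 6 libraries counted separately, 445 with GC correction as well, 255 with DESeq2, 81 with no filter, 27 with limma-voom and quality weights and 26 with GC correction. With replicates left out there were from 7 (without knockout 4) to 16, with 8 without wild type 2 and 10 without wild type 3; the cause was not tested. Of the 10 genes, Fn1 passed in DESeq2 at 1.00 and Postn with GC correction and 6 libraries counted separately at 0.58; the cause was not tested. Mfap5 turned to -0.0043 with 6 libraries counted separately, -0.0336 with limma-voom and -0.0621 on TPM. With single replicates left out Mfap5 ran from -0.10 to 0.13 (negative without knockout 4 or wild type 2) and Lum from -0.63 (without knockout 4) to 0.0287 (without wild type 1). Without knockout 5 and 6 together Lum was 0.22 and Apod 0.11. The other 160 values of the genes kept their direction and side of the threshold. The log2 difference of the Bgn to Dcn ratio, 0.80, ran from 0.45 to 1.08 with samples left out; those of Fn1, Postn and Fbn1 stayed within the wild-type SD. The perineurial median of 0.00 turned to -0.18 with 6 libraries counted separately and -0.25 with limma-voom, and ran from -0.34 to 0.15 with single replicates left out, as did the adipocyte median from -0.36 to 0.58, the erythroid from -0.11 to 1.504 and the skeletal muscle from -0.88 to 1.90. The macrophage median was 0.24 without knockout 5 and 6. The lowest ends for erythroid and muscle genes came without knockout 4. Without knockout 4, or without 5 and 6, a single knockout sample remained, whose spread was taken from the wild type. Depth limits Pi16 most among the 10 genes, with 184 to 224 counts per library.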
